A study of Sus scrofa with 6 samples.

Results

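miR-205 (listed as ssc-miR-205) was the most abundant of the mature microRNAs (miRNAs, RNAs of about 22 bases that silence messenger RNAs) measured in pig oocytes, and it was chosen for that level. With it stands miR-429 (ssc-miR-429), chosen by name as the other epithelial miRNA in the tables. These are 2 of 326 listed pig miRNAs, of which 242 had at least 1 read and 104 had enough reads to be tested between groups; miR-205 was among the tested ones and miR-429 was not. Because its level chose miR-205, its rank and its share are given as a description, and tests are kept to the difference between follicle sizes and to the profile with miR-205 left out.

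Small RNA was sequenced from denuded oocytes, which are oocytes stripped of their cumulus cells, of prepubertal gilts whose ovaries came from an abattoir. Large-follicle oocytes (LO) were drawn through a 20-gauge needle on a 10 mL syringe from follicles measuring 3 to 6 mm. Small-follicle oocytes (SO) were drawn through a 23-gauge needle on a 5 mL syringe from follicles smaller than 2 mm, so follicle size and aspiration cannot be told apart. Each group had 3 libraries that the series design calls biological replicates; the sources used here do not say how many animals or oocytes each holds. According to the series title, developmental competence of the oocyte was the interest.

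miR-205 is best known from stratified and glandular epithelia. In cultured mammalian epithelial cells it represses the transcription factors ZEB1 and ZEB2 together with the miR-200 family, and so holds cells in the epithelial state. miR-429 belongs to that miR-200 family and is made from the same transcript as miR-200a and miR-200b in mammals; in mice, loss of miR-200b and miR-429 blocks ovulation through the pituitary. In growing mouse oocytes, miRNA activity in general is known to be weak. In the RefSeq gene table of the Sscrofa11.1 assembly, MIR205 lies within the span of a long non-coding RNA gene, LOC102159171, between the coding genes CAMK1G and PLXNA2. MIR429 lies between LOC110261078 and TTLL10, inside no other gene. The submitters' notes name another build, Sscrofa10.2, so no coordinates are given.

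The mature sequences of both miRNAs are shown first, followed by the 3 next most abundant miRNAs, since the comparison of miR-205 with the rest of the profile rests on them. They are copied from the deposited tables in DNA letters, with the seed (bases 2 to 8, the part that pairs with target messenger RNAs) in capitals.
miR-205: tCCTTCATtccaccggagtctg
miR-429: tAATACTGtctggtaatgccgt
miR-16: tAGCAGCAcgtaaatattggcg
miR-148a-3p: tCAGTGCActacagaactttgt
let-7a: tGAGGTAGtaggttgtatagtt

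The miR-205 seed CCTTCAT was carried by 0 other listed miRNAs, and so was the miR-429 seed AATACTG. Over the first 20 bases, the nearest listed sequence to miR-205 differed at 10 positions and the nearest to miR-429 at 8. The reads counted for miR-205 are therefore not split with, or borrowed from, a listed name of near-identical sequence. By contrast, the miR-16 seed was shared with 5 other names, the let-7a seed with 7 and the miR-148a-3p seed with 2. miR-205 is 22 bases long, as is the median tested miRNA, and starts with T as do 63.5% of the tested miRNAs. Its GC content was 54.5%, against a median of 45.5% over the tested miRNAs, and 16 of the 104, itself included, were at or above its value.

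Depth differed between the groups. Reads assigned to listed miRNAs ran from 7755 to 42541 in LO and from 44964 to 55230 in SO, and every LO library was shallower than every SO library. The deposited values were read as reads per 1000000 (RPM) of a larger total set by the authors, and whole reads were recovered from them. The exact intervals of shares and the counting interval of a ratio given below cover the sampling of reads only, not the spread between libraries. Whether those reads stand for single molecules is not described in the sources used here.

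miR-205 reached 8389, 6108 and 11355 RPM in LO replicates 1 to 3, against 10578, 8894 and 10046 RPM in SO replicates 1 to 3. Both the lowest and the highest of the 6 libraries were LO libraries, and the SO values lay between them. The means were 8618 ± 2631 RPM in LO libraries and 9839 ± 861 RPM in SO libraries (SD of 3 per group). These values rest on 4831, 2819 and 16171 reads in LO and on 20260, 17066 and 21980 reads in SO. Counting error alone gives a relative error of 0.675 to 1.88% per library, against a coefficient of variation between replicates of 30.5% in LO and 8.75% in SO. That spread was on the low side of all tested miRNAs: the median tested miRNA varied by 51.2% in LO and 25.6% in SO, and miR-205 was the 20th lowest of 104 in LO and the 12th lowest in SO. That median includes miRNAs of few reads, which carry more counting error. Among the 9 miRNAs next in mean level, the coefficient ran from 20.5% (miR-148a-3p) to 72.0% (let-7c) in LO. In SO it ran from 4.71% (miR-103) to 32.7% (miR-148a-3p), and miR-205 lay inside both ranges.

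As a share of the listed miRNA reads, miR-205 held 27.7% in LO replicate 1 (95% exact Clopper-Pearson interval 27.0 to 28.3), 36.4% in LO replicate 2 (35.3 to 37.4) and 38.0% in LO replicate 3 (37.6 to 38.5). It held 36.7% in SO replicate 1 (36.3 to 37.1), 38.0% in SO replicate 2 (37.5 to 38.4) and 43.2% in SO replicate 3 (42.7 to 43.6). LO replicate 1 lay below the other 5 libraries and SO replicate 3 above them, while the remaining 4 lay within a narrow band, so the groups overlap. All listed miRNAs together were 1.68 to 3.03% of the total behind the deposited scaling, and miR-205 was 0.611 to 1.14% of it. Over all 6 libraries it took 83127 of 218890 listed reads, or 38.0%.

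**Figure D1:**
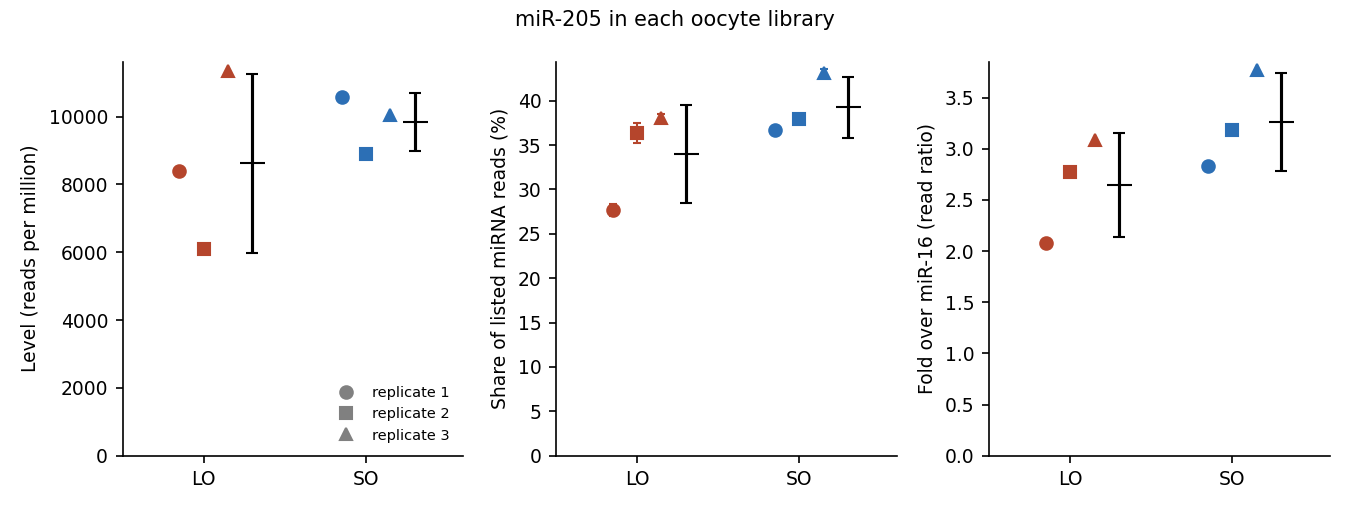
Level of miR-205 in RPM, its share of listed miRNA reads in percent and its read ratio to miR-16, for the LO and SO libraries. Symbols are single libraries, coloured bars on the shares are 95% exact Clopper-Pearson intervals, and black bars are the mean and SD of 3 libraries; LO replicate 1 has the lowest share (27.7%) and SO replicate 3 the highest (43.2%).

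The question the design asks of miR-205 is whether its level follows follicle size. The log2 fold change of LO over SO was -0.23 (SE 0.29) by limma on log2(RPM + 1), with an FDR (Benjamini-Hochberg, over all 104 tested miRNAs) of 0.780. The 95% interval ran from -0.81 to 0.34 on the log2 scale, that is, from 0.570 to 1.27 times the SO level, which includes both lower and higher levels in LO. The SE follows limma's trend with abundance; the replicates themselves had SDs of 0.45 in LO and 0.13 in SO on this scale. By limma 0 of the 104 tested miRNAs (0%) passed an FDR of 0.05 and 4 had an unadjusted p under 0.05, while edgeR and DESeq2 on the recovered reads each called 2 (1.92%), miR-205 in neither. Single libraries moved the estimate, to -0.01 when LO replicate 2 was left out and to -0.46 when LO replicate 3 was left out.

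The log2 fold change of miR-205 was below 0 under each scaling run, by an amount that depended on the scaling. Scaled to listed reads it was -0.22 (SE 0.14, limma FDR 0.508). Scaled to the listed reads other than its own it was -0.34 (SE 0.20, limma FDR 0.482), and with TMM, a scaling that trims extreme features, it was -0.48 (SE 0.34, limma FDR 0.555). On the recovered reads edgeR gave -0.43 (FDR 0.497) and DESeq2 -0.47 (adjusted p = 0.496). On the deposited scaling 32 of the 104 tested miRNAs (30.8%) had a log2 fold change below 0, and 22 lay below miR-205. With LO replicate 1 left out the corresponding counts were 57 of 104 (54.8%) and 32. The log2 fold change of miR-205 minus the median of the tested miRNAs was -0.52 with all libraries. It changed to -0.17 when LO replicate 1 was left out, to -0.35 when SO replicate 3 was, and lay between -0.64 and -0.59 with each of the other libraries left out.

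**Figure D2:**
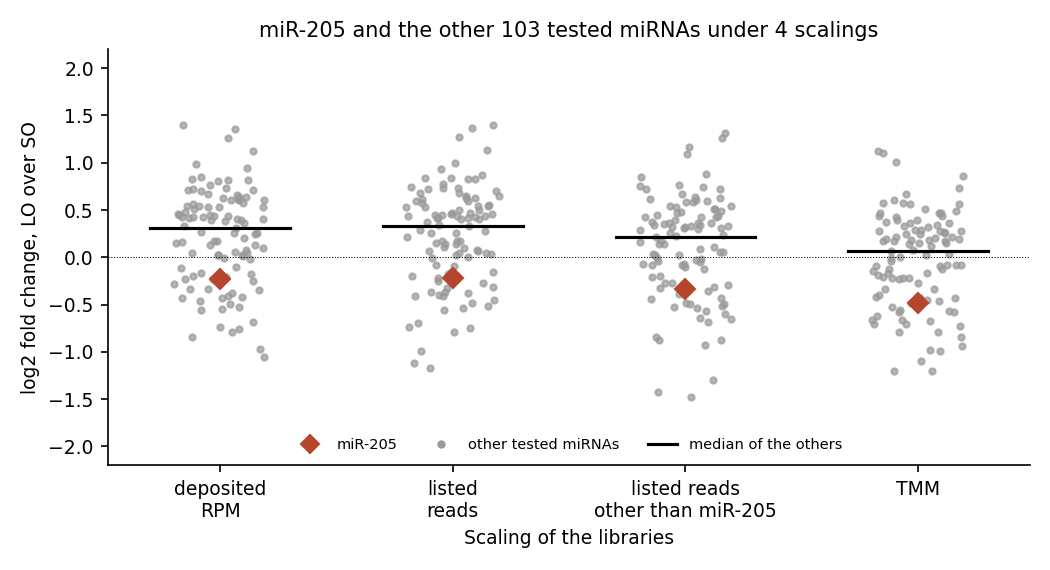
log2 fold change of LO over SO for each of 104 tested miRNAs (limma) under 4 scalings of the libraries, on the vertical axis. The diamond is miR-205, grey points are the other 103 tested miRNAs and the black line is their median; miR-205 lies below that median under all 4 scalings, at -0.23, -0.22, -0.34 and -0.48 from left to right.

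By share, miR-205 averaged 34.0% ± 5.56 of listed reads in LO libraries and 39.3% ± 3.43 in SO libraries (SD of 3 per group). LO minus SO was -5.25 percentage points (p = 0.3 by exact two-sided permutation, adjusted over 6 tests 0.6). With 3 libraries against 3 the smallest p this test can give is 0.1. Without LO replicate 1 the difference was -2.08 points. LO replicate 1 also had the highest summed share of granulosa and cumulus markers, the follicle cells that surround the oocyte. All 8 names of that list had at least 1 read, with 5160 reads in all over the 6 libraries. Most of these came from 3 names, miR-21 with 1992, miR-31 with 1817 and miR-202-5p with 1276. miR-202-3p had 61 reads, miR-132 10, miR-212 2, and miR-224 and miR-383 1 each. The 8 names summed to 3.82% of listed reads in LO replicate 1, within an LO range of 1.93 to 3.82%. The SO range was 1.68 to 2.55%, with the lowest value in SO replicate 3, where the miR-205 share was highest. The total behind each marker share includes the miR-205 reads. The part of these markers in the miR-205 share was not tested, and in bulk libraries fewer cells of a type and less RNA per cell cannot be told apart.

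The germ cell and gonad miRNAs miR-34c, miR-202-5p and miR-202-3p were found in every library, at a summed 0.619 to 0.968% of listed reads in LO and 0.571 to 0.902% in SO. On this total, which includes the miR-205 reads, the sum was highest in LO replicate 1 and lowest in SO replicate 3. Against the listed reads other than miR-205, it was highest in SO replicate 1 and lowest in LO replicate 2. The granulosa and cumulus list also holds miR-202-5p and miR-202-3p, so their reads, 1276 and 61 over the 6 libraries beside 252 of miR-34c, are in both sums. Of the theca and stroma markers 4 of 5 had reads, with miR-214 at 0 in every library, and they summed to 0.240 to 0.438% in LO and 0.185 to 0.324% in SO. Both endothelial markers had reads, at a summed 0.0306 to 0.0645% in LO and 0.0137 to 0.0489% in SO. SO replicate 3 was lowest in the theca and stroma sum and in the endothelial sum, and LO replicate 2 was highest. LO replicate 1 was close to LO replicate 2, at 0.401% and 0.0573%. The endothelial sums rest on few reads: 3 of miR-126-3p and 2 of miR-126-5p in LO replicate 2, against 6 and 1 in SO replicate 3. The 4 blood markers in the tables summed to 0.0115 to 0.0645% in LO and 0.00667 to 0.197% in SO. The top of the SO range was SO replicate 1, which held 80 of the 88 reads of miR-142-3p.

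How far miR-205 stood above the next miRNA was then measured within each library, where no scaling enters. miR-16, which acts on cell cycle genes, was second in all 6 libraries. miR-205 had 2.08, 2.77 and 3.08 times the reads of miR-16 in LO replicates 1 to 3, against 2.83, 3.19 and 3.77 times in SO replicates 1 to 3. The LO values were mostly below the SO values, with LO replicate 3 above SO replicate 1. On the log2 scale this ratio averaged 1.38 ± 0.29 in LO libraries and 1.70 ± 0.21 in SO libraries (SD of 3 per group). LO minus SO was -0.31 (p = 0.2 by exact two-sided permutation, adjusted over 6 tests 0.6). Without LO replicate 1 the difference was -0.15. Against miR-148a-3p, the third by mean level, the difference was -0.06 (exact permutation p = 0.9 with 3 libraries each).

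The step from miR-16 to the third miRNA of a library was 1.65 to 2.11 times, beside the 2.08 to 3.77 times from miR-205 to miR-16. Summing downwards from miR-16, the next 4, 7 and 10 miRNAs were needed to match the miR-205 reads of LO replicates 1 to 3, and the next 7, 9 and 15 in SO replicates 1 to 3. The 9 next most abundant miRNAs together held 40.1% ± 1.90 of listed reads in LO libraries and 38.0% ± 2.53 in SO libraries (SD of 3 per group). The remaining miRNAs shared 25.9% ± 4.36 in LO and 22.7% ± 1.01 in SO, with LO replicate 1 highest at 30.9%.

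**Figure D3:**
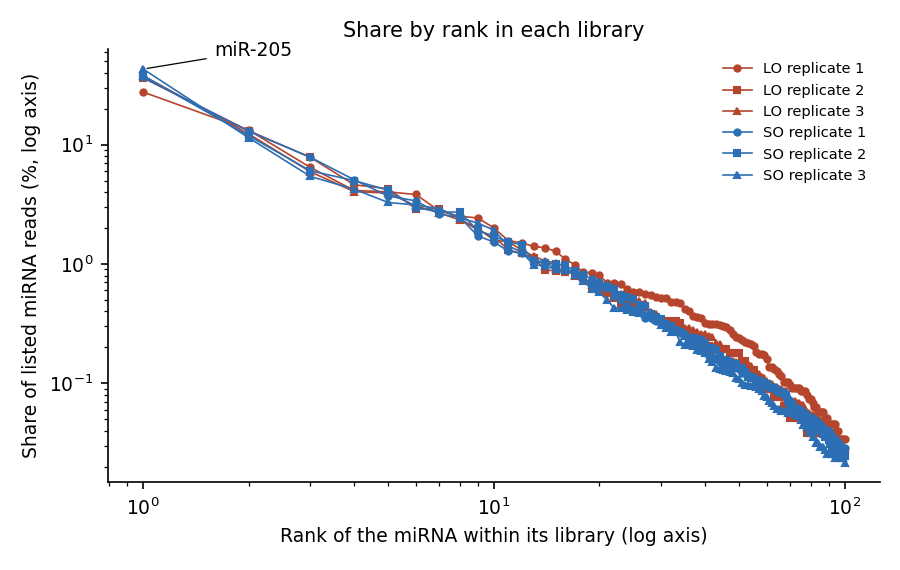
Share of listed miRNA reads in percent (vertical, log axis) against the rank of the miRNA within its library (horizontal, log axis) for the 100 highest ranks, with a line for each LO and SO library. miR-205 holds rank 1 in all 6 libraries at 27.7 to 43.2%, and LO replicate 1 runs above the other libraries over the middle ranks.

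Read by seed, the dominance of miR-205 rested on a single name. The 326 listed miRNAs carry 261 different seeds, 184 of them with reads. The CCTTCAT seed took 38.0% of all listed reads through miR-205 alone. The AGCAGCA seed of miR-16 took 12.8% through 6 names, the GAGGTAG seed of the let-7 family 8.94% through 8 names, and the CAGTGCA seed of miR-148a-3p 6.52% through 3 names. Over the pooled reads, the 5 seed groups after miR-205 summed to 37.4%, just under it, and the 6 after it to 40.9%. Library by library, the same 5 groups summed to more than miR-205 in LO replicates 1 and 2 and in SO replicate 1. In LO replicate 3 and SO replicates 2 and 3 they summed to less. In LO replicate 1 the let-7 seed reached 16.1% and passed the miR-16 seed at 14.1%; in the other LO libraries it held 9.63 and 8.97%, and in SO 7.86, 9.25 and 7.23%. The mean GC content of the listed miRNAs, weighted by their reads, was 47.7% with miR-205 and 43.5% without it.

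miR-429 was barely detected. It had 0 reads in all 3 LO libraries, against 1, 0 and 0 reads in SO replicates 1 to 3, the 1 read amounting to 0.522 RPM. With 67760 listed reads in LO, a count of 0 allows a share of up to 0.00443% when set at 3 reads, and of up to 0.00544% by the exact Clopper-Pearson limit. In SO, 1 read of 151130 is a share of 0.000662% (95% exact Clopper-Pearson interval 1.68e-05 to 0.00369). No difference between the groups was detectable at this depth, and with a single read among 6 libraries a permutation test carries no information. Over the 6 libraries miR-205 had 83127 reads to the 1 of miR-429, a ratio with a 95% counting interval of 14919 to 3283385.

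The epithelial list held 8 names, and of these 2 are in the analysis, miR-205 and miR-429; the other names on the list were miR-200a, miR-200b, miR-200c, miR-141, miR-203a and miR-203b. A second list of 8 miRNAs enriched in epithelia or glands had 5 names in the tables. miR-182 and miR-183 are made from the same transcript in sensory and epithelial cells. miR-182 was found at 333, 323 and 459 RPM in LO replicates 1 to 3, against 498, 447 and 448 RPM in SO replicates 1 to 3. LO replicate 3 lay within the SO values and the other LO libraries below them. The log2 fold change of miR-182 was -0.34 and that of miR-183 was -0.43 (limma FDR 0.780 for both). miR-183 was found at 66.3 ± 21.1 RPM in LO libraries and 87.7 ± 13.9 RPM in SO libraries (SD of 3 per group). miR-31, which is also on the granulosa and cumulus list, had the higher mean in LO, at 310 ± 164 RPM in LO libraries and 175 ± 51.2 RPM in SO libraries (log2 fold change 0.71, limma FDR 0.780). miR-192, an intestinal and renal miRNA, had 19 reads over the 6 libraries, and its relative miR-215 had 0. Of the 3 tested members 0 passed the test in either direction, and their median log2 fold change was -0.34, beside 0.29 for all tested miRNAs. Leaving out LO replicate 1 gave -0.27 for the list and -0.06 for all tested miRNAs. Over the 6 libraries miR-205 had 22.0 reads for each read of miR-182, 45.7 for each of miR-31 and 117 for each of miR-183.

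The miRNAs whose rises and dips across libraries came closest to those of miR-205 were found by the root mean square difference of log2(RPM + 1) over the 6 libraries, after subtracting each miRNA's own mean. The smallest difference was 0.13, for miR-146a-5p, a feedback inhibitor of inflammatory signalling, and for miR-30a-5p. miR-182 followed at 0.15, miR-664-5p at 0.17 and miR-125b, the vertebrate relative of lin-4 of worms, at 0.18. The median over the 103 other tested miRNAs was 0.57 and the largest 1.39. miR-205, miR-146a-5p and miR-30a-5p were each lowest in LO replicate 2, at -0.57, -0.50 and -0.51 from their means. miR-125b differed from the others in LO replicate 1, where it stood at 0.24 while miR-205 stood at -0.11. All these values share the depth and scaling of their library, and abundant miRNAs are measured with less counting error, so a small difference is a description of these libraries.

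**Figure D4:**
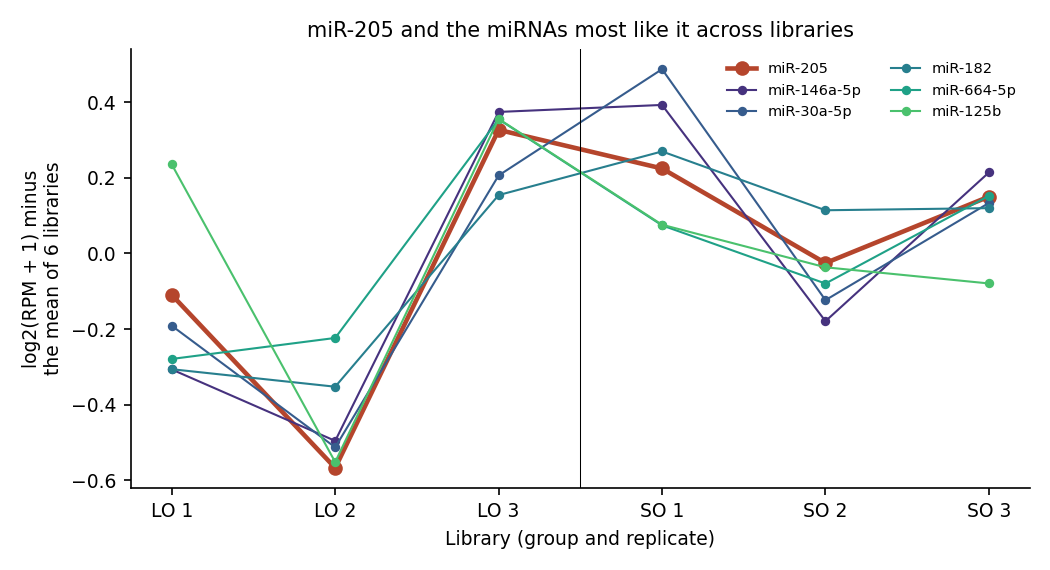
log2(RPM + 1) of miR-205 and of the 5 tested miRNAs most like it, each minus its own mean over the 6 libraries (vertical), for each LO and SO library (horizontal). miR-205 (thick line) is lowest in LO replicate 2 (-0.57) and highest in LO replicate 3 (0.33).

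The rest of the profile was then examined with miR-205 left out. The other listed miRNAs summed to 21938, 10695 and 18517 RPM in LO replicates 1 to 3, against 18259, 14539 and 13234 RPM in SO replicates 1 to 3. LO again held the lowest and the highest library, both outside the SO range. The means were 17050 ± 5763 RPM in LO libraries and 15344 ± 2607 RPM in SO libraries (SD of 3 per group). LO minus SO was 1706 RPM (p = 0.7 by exact two-sided permutation, adjusted over 6 tests 0.84). Without LO replicate 1 that difference turned to -738 RPM, and without LO replicate 2 it was 4883 RPM.

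miR-16 took 18.4, 20.6 and 19.9% of the listed reads other than miR-205 in LO replicates 1 to 3, against 20.5, 19.2 and 20.1% in SO replicates 1 to 3. The groups overlap fully, and among the 9 next most abundant miRNAs this share varied least across the 6 libraries, with a coefficient of variation of 4.34%. miR-148a-3p took 5.56, 12.3 and 9.57% in LO, against 12.4, 9.74 and 9.55% in SO, with LO replicate 1 far below the other 5 libraries. The mean log2 fold changes on this scale were -0.02 for miR-16 and -0.27 for miR-148a-3p (limma FDR 0.938 and 0.631).

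miR-128, a miRNA best known from neurons, took 3.48, 6.73 and 6.35% in LO, against 8.03, 8.06 and 7.46% in SO. Every LO library lay below every SO library, and the log2 fold change was -0.57 (SE 0.24, limma FDR 0.492). let-7c, of the let-7 family that accumulates as cells differentiate, took 5.29, 2.67 and 2.55% in LO, against 1.43, 2.33 and 1.72% in SO. Here every LO library lay above every SO library, with a log2 fold change of 0.88 (SE 0.30, limma FDR 0.449). let-7a averaged 7.57% ± 1.23 in LO and 6.02% ± 0.618 in SO, and let-7f 4.42% ± 1.12 in LO libraries and 4.18% ± 0.265 in SO libraries (SD of 3 per group). miR-30a-5p averaged 3.89% ± 0.970 in LO and 5.17% ± 0.705 in SO. miR-125b, at 4.45% in LO and 4.68% in SO, and miR-103, made from introns of the pantothenate kinase genes, at 2.78% in LO and 2.30% in SO, complete the 9.

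**Figure D5:**
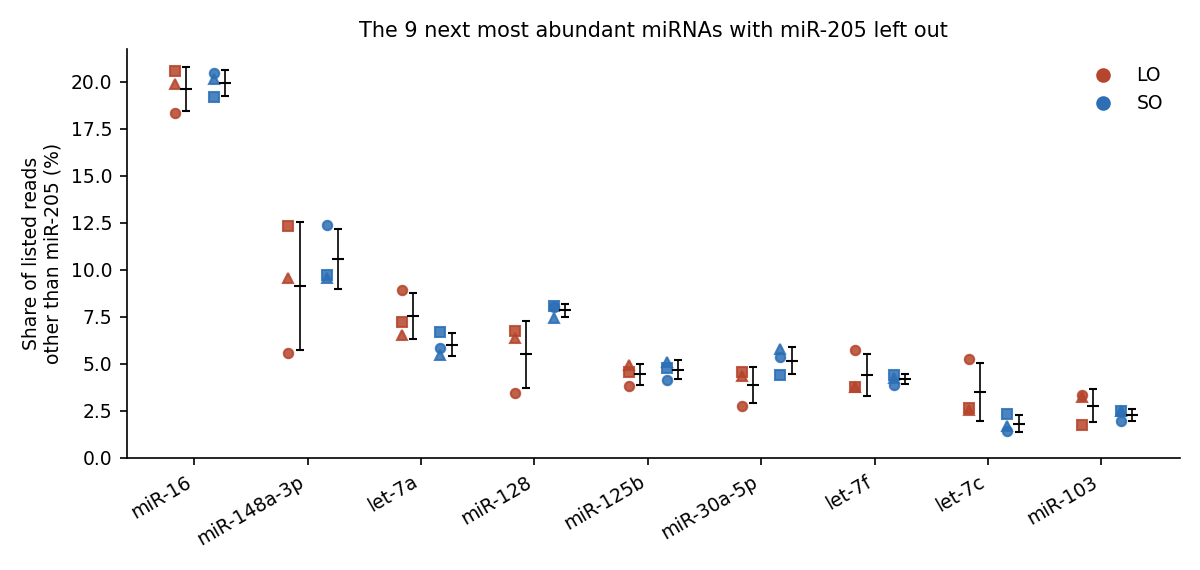
Share of the listed reads other than miR-205, in percent, for the 9 next most abundant miRNAs, with LO left of SO for each. Symbols are single libraries (circle, square and triangle for replicates 1, 2 and 3) and black bars the mean and SD of 3 libraries; miR-16 stays between 18.4 and 20.6% in all 6 libraries, and the LO and SO points of miR-128 and let-7c do not overlap.

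The number of miRNAs whose groups lay apart depended on the scaling. On the deposited scaling, 4 of the 104 tested miRNAs (3.85%) had LO and SO ranges that did not overlap. As shares of listed reads 16 of 104 (15.4%) did, and as shares of the listed reads other than miR-205 18 of 103 (17.5%) did, 10 of them higher in LO and 8 lower. The 4 on the deposited scaling included miR-184 and miR-489, while miR-128, let-7c, miR-152 and miR-10b overlapped on the deposited scaling. For a single miRNA, groups of 3 and 3 libraries that lie apart give p = 0.1 by exact two-sided permutation, so these counts are a description. miR-205 itself overlapped on each scale it was measured on. Of the 103 others, 69.9% had a log2 fold change above 0 on the deposited scaling, 61.2% after scaling without miR-205 (40 of 103, or 38.8%, were below 0) and 53.4% with TMM. Their median was 0.31, 0.21 and 0.07 on the same scalings. Single libraries moved these values. Without LO replicate 1, 45.6% were above 0 on the deposited scaling, with a median of -0.06, and the median after scaling without miR-205 was 0.05. The deposited-scale median was 0.63 without LO replicate 2, 0.17 without LO replicate 3 and 0.13 without SO replicate 3, where the median after scaling without miR-205 was also 0.13.

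After scaling without miR-205, limma called 0 of 103 miRNAs (0%) at an FDR of 0.05. An unadjusted p under 0.05 was reached by 9, of which 6 were higher in LO and 3 lower. edgeR and DESeq2 on the recovered reads without miR-205 each called 2 (1.94%), both higher in LO: miR-184 and the hypoxia-induced miR-210 by edgeR, and miR-152 and miR-184 by DESeq2. The limma count changed without LO replicate 2, the shallowest library. Without it 9 of 103 (8.74%) were called, 8 higher in LO and miR-128 lower, whereas on the deposited scaling 18 of 104 (17.3%) were called, all higher in LO. The lists had 8 names in common, which is 88.9% of the 9 and 44.4% of the 18. In the fit behind the 18 calls, the SE came from the abundance trend and not from a miRNA's own replicates.

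Of the names with the smallest p on the higher side after scaling without miR-205, miR-184, a miRNA of the lens and cornea, took 0.847, 0.527 and 0.406% of the remaining reads in LO replicates 1 to 3, against 0.217, 0.254 and 0.231% in SO. Its groups do not overlap, with a log2 fold change of 1.26 (SE 0.33, limma FDR 0.229). miR-152, which shares the seed of miR-148a-3p shown above, took 0.649, 0.425 and 0.550% in LO, against 0.260, 0.308 and 0.162% in SO, again without overlap (log2 fold change 1.17, SE 0.33, limma FDR 0.229). let-7c, described above, let-7e at 0.72 and miR-31 at 0.61 on the log2 scale completed that side, with a limma FDR of 0.449 for let-7c and 0.492 for the other two.

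On the lower side miR-489 took 0.119, 0.162 and 0.152% in LO, against 0.217, 0.254 and 0.335% in SO, without overlap (log2 fold change -0.87, SE 0.33, limma FDR 0.492). miR-10b, encoded in a HOX gene cluster, took 1.94, 2.07 and 2.12% in LO, against 2.41, 2.73 and 3.88% in SO, also without overlap (log2 fold change -0.53, SE 0.23, limma FDR 0.492). miR-128, miR-187 at -0.93 and miR-101, a repressor of the histone methyltransferase EZH2, at -0.52 had the same FDR. None of these 10 names passed the limma test on either scaling with all 6 libraries, where their FDRs were 0.763 to 0.780 on the deposited one.

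The evenness of the remaining profile was summarised by the effective number of miRNAs, the number of equally abundant miRNAs that would give the same Shannon entropy. It was 37.1, 28.3 and 32.7 in LO replicates 1 to 3, against 28.6, 30.5 and 29.0 in SO replicates 1 to 3. LO held both the most even and the least even library, the latter close to SO replicate 1. The measure was not brought to equal depth. LO replicate 2 had 4936 reads other than miR-205 and SO replicate 1 had 34970. The means were 32.7 ± 4.43 in LO libraries and 29.4 ± 1.01 in SO libraries (SD of 3 per group; p = 0.4 by exact two-sided permutation, adjusted over 6 tests 0.6). With miR-205 kept in, the same measure was 19.2 ± 4.70 in LO and 15.3 ± 1.57 in SO, lower in each library than without it. Since miR-205 was chosen for its level, that lowering is a description only. Without LO replicate 1 the difference in the remaining profile was 1.10 in place of 3.32.

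The number of other miRNAs detected depended on depth. At the depth sequenced, 182, 147 and 200 miRNAs besides miR-205 had at least 1 read in LO replicates 1 to 3, against 209, 193 and 198 in SO replicates 1 to 3. When the reads other than miR-205 were thinned to the 4936 of LO replicate 2, the expected numbers were 150, 147 and 148 in LO, against 145, 139 and 140 in SO. Every LO library then lay above every SO library, with means of 149 ± 1.76 in LO libraries and 141 ± 3.34 in SO libraries (SD of 3 per group). The difference of 7.29 gave p = 0.1 by exact two-sided permutation, the lowest value open to this design, and 0.6 after adjustment over 6 tests.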

How the data were processed

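Small RNA libraries were made from mirVana RNA with the QIAseq miRNA Library Kit, per the labels' protocols. The file header names the value TPM, but each value above 0 was a whole multiple of 1 step per library at every sequence length, so the deposited values were read as RPM, reads per 1000000 of a total set by the authors. With that step, 100% of the values came out as whole reads, to a tolerance of 0.01 read. That total, 461505 to 2187987 reads, and any use of molecular identifiers are not described in the sources used here. Build Sscrofa10.2 and the tools Bowtie2 2.2.2, cutadapt, bcl2fastq and edgeR are named, without roles, per the submitters' processing notes.

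limma 3.58.1 (R 4.3.3) was run with an intensity trend on log2(RPM + 1) for 104 miRNAs that passed edgeR's filterByExpr, with Benjamini-Hochberg adjustment. For the profile without miR-205 the reads were set per 1000000 listed reads other than miR-205, with a pseudocount of 40. Fold changes on these scales understate those of low miRNAs. edgeR 4.0.16 (quasi-likelihood, TMM) and DESeq2 1.42.0 were run on the recovered reads as alternatives. Per-library measures were compared by exact two-sided permutation (SciPy 1.17.1), adjusted over 6 tests, of which that of miR-429, with 1 read, carries no information. These permutation p-values refer to the spread between these libraries, while those of limma draw in part or wholly on the variance of the other tested miRNAs. On log2(RPM + 1) with all 6 libraries, the limma SE came from the abundance trend alone, not from a miRNA's own replicates. There miR-103 and miR-10b both had an SE of 0.44, with SDs between LO replicates of 1.06 and 0.51. Thinned counts are hypergeometric expectations. The limma fits were tested on simulated data.

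Samples were grouped by title. The members and lists were chosen with earlier results of these data known. Named miRNAs are the members, the 9 next most abundant, the 5 most alike, the epithelial lists, and the 5 of smallest p per direction without miR-205; miR-210, miR-142-3p and the other marker names were added. Alternatives covered pseudocount, filter, scaling, tool, each library left out and the replicate block. Leave-one-out fits kept the same miRNAs.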

Additional observations from a re-analysis of the deposited data

How the results depend on the processing

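Of 97 alternative results, 88 kept the main result. For the 6 per-library measures this means the sign of the difference only, and for the call counts the same count. For the miR-205 fold change it means the sign and the side of the FDR threshold. Of the 88, 8 belong to miR-429, which had 1 read. The log2 fold change of miR-205 stayed below 0 and uncalled in each of its alternatives, between -0.48 and -0.01, and ran from -0.46 to -0.01 over the libraries left out in turn. The number of miRNAs called by limma, 0 with all libraries, was 2 with edgeR and 2 with DESeq2, both with and without miR-205. It ran from 0 to 18 over the libraries left out on the deposited scaling and from 0 to 9 without miR-205; the call count rose only without LO replicate 2, and the cause was not tested. The difference in reads other than miR-205 ran from -738 to 4883 RPM over the libraries left out. The difference in miRNAs detected was -23.7 without thinning, where the LO libraries are shallower. The difference for miR-429 ran from -0.26 to 0 RPM, since its 1 read is in SO replicate 1. Over the libraries left out, the share difference ran from -7.26 to -2.08 points, the log2 ratio to miR-16 from -0.43 to -0.15, the effective number from 1.10 to 5.53 and the thinned detection from 5.96 to 9.16.

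Replicate numbers are shared between the groups. Deviations from the group means had correlations of -0.34, -0.22 and 0.08 between same-numbered libraries. Between differently numbered ones they ran from -0.29 to 0.43. With 3 libraries per group these values cannot decide whether the numbers pair the libraries. With the replicate block, limma gave miR-205 a log2 fold change of -0.23 (FDR 0.853) and called 0 miRNAs with and without it; the exact sign-flip test over 3 pairs, whose smallest p is 0.25, gave p = 0.25 for the share. Depth limits low miRNAs most: 3 reads were worth 6.50 RPM in LO replicate 2 and 1.37 RPM in SO replicate 3.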
